A study of Saccharomyces cerevisiae with 5 samples.

Results

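The 3′ external transcribed spacer (3′ ETS) is the last transcribed stretch of the 35S ribosomal RNA precursor of budding yeast, Saccharomyces cerevisiae, just past the 3′ end of 25S rRNA. It was taken as all 211 nucleotides that the files assign to region ETS 2, of 9137 in the rDNA repeat, starting at nt 6648 counted from the 5′ end of the gene. Native elongating transcript sequencing (NET-seq), a method meant to map the RNA 3′ ends held in transcribing polymerases, had been done on RNA polymerase I pulled down by an HA tag on Rpa135, its second-largest subunit. The tag was described for all samples, so both genotypes carried it, and all cultures were grown in rich medium (YEPD) to an A600 of 0.3 and collected by filtration. Of the 5 libraries, 3 were wild type (WT) and 2 came from the rpa190-F1205H strain, called the mutant below, in which the largest, catalytic subunit of the enzyme carries a substitution in its trigger loop. The sample titles write this substitution as F105H, and in both mutant files the sample column says WT, so that the genotype rests on the genotype label. RPA190 itself was not analysed here. No strain background or number of clones is given in the sources used here.

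In yeast the 3′ ETS is where the precursor is first cut free from the polymerase and where RNA polymerase I stops. Rnt1, the yeast RNase III, recognises a hairpin closed by a loop of the form AGNN and cuts both sides of its stem while transcription goes on, after which the 25S 3′ end is trimmed and the RNA still in the polymerase can be degraded from its new 5′ end. T1 is the main termination site, followed by a site for the Myb-like DNA-binding proteins Reb1 and Nsi1, and T2 is a fail-safe site farther on.

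The sequence is shown whole because every result below is a place in it. It lies on the minus strand at chrXII:460712-460922, coordinates that equal those of ETS2-2 in the RefSeq genes of assembly R64, the build is not given in the sources used here, and the letters are those of the deposited files. Capitals mark, in order, the stretch of nt 6663 to 6697 that the files name as cut by Rnt1, the single nucleotide named T1 (nt 6739) and the Reb1/Nsi1 binding site (nt 6757 to 6767).
3′ ETS: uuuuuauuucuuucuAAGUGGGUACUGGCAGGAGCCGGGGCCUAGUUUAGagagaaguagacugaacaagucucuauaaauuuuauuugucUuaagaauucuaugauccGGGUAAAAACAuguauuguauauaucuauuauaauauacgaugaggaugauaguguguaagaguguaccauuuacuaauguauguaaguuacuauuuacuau

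Folded as a whole with RNAfold, the 3′ ETS formed a hairpin of 24 base pairs from nt 6652 to 6706, and all 24 pairs were also predicted when the last 100 nt of 25S were added. This hairpin is shown because it holds most of the mutant signal, at chrXII:460864-460918 on the minus strand, with its 4 nt loop (nt 6677 to 6680) in capitals.
Rnt1 hairpin: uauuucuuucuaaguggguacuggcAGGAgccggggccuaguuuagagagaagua
The loop has the AGNN form. The marked Rnt1 stretch lies inside the hairpin, and its 2 ends face each other across the stem, since nt 6662, the last nucleotide before the stretch, was paired with nt 6696, and nt 6697, its last nucleotide, with nt 6661. The fold is a prediction from sequence alone.

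Sense-strand counts of RNA 3′ ends in the 3′ ETS were 2537, 2026 and 2096 in WT, against 9861 and 1519 for the mutant, out of 519517, 445251, 465427, 1861226 and 301306 over the 35S gene. A count of 0 allows a share of the 3′ ETS of up to 0.118%, 0.148% and 0.143% in WT, against 0.0304% and 0.197% for the mutant (a limit of 3 counts). These limits, like the intervals below, hold for counting error alone. With 3 libraries against 2, a two-sided exact permutation test cannot give a p below 0.2, and that value stands for each share below unless another is given. The labels do not say whether the libraries of a genotype came from separate cultures, so the p-values measure only the spread between these libraries, which may be technical. Values below are means ± SD over 3 WT and 2 mutant libraries. The 3′ ETS took 0.465% ± 0.0207 of the 35S gene in WT, against 0.517% ± 0.0182 in the mutant. Its parts moved in opposite directions. For its first 15 nt the difference (mutant minus WT) was -0.219 percentage points of the 35S gene. Without them, the 3′ ETS took 0.134% ± 0.00866 of the gene in WT and 0.405% ± 0.0340 in the mutant. The 35S total includes the ends of the mature rRNAs. Without 5 nt around these ends, the difference for the whole 3′ ETS was 0.108 percentage points, against 0.0524 with them.

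**Figure D1:**
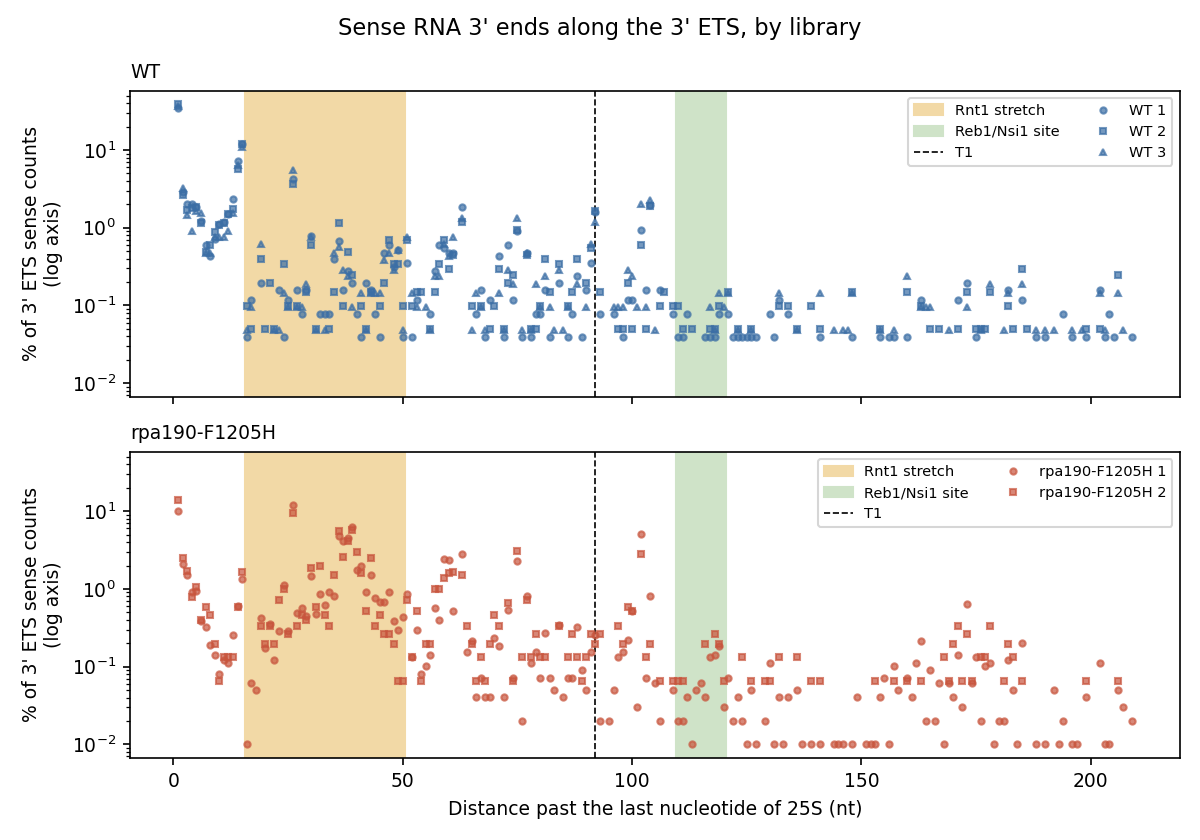
Share of the 3′ ETS sense counts at each nucleotide (log axis, zero counts not drawn) against the distance past the last nucleotide of 25S, with 1 symbol per library, WT above and mutant below. Shaded bands are the marked Rnt1 stretch and the Reb1/Nsi1 site and the dashed line is T1. The first 15 nt held 71.2% in WT, against 21.7% in the mutant, and the Rnt1 stretch 10.9% and 49.7%.

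In WT, most 3′ ends of the 3′ ETS lay in its first 15 nt, between the 25S end and the Rnt1 stretch, whereas in the mutant the Rnt1 stretch itself held more of them than any other segment. The first 15 nt (nt 6648 to 6662) held 1832, 1473 and 1439 counts in WT, against 1869 and 370 in the mutant. This was 71.2% ± 2.21 of the 3′ ETS signal in WT, against 21.7% ± 3.82 in the mutant, and the genotypes did not overlap. The Rnt1 stretch held 268, 205 and 249 counts in WT, against 5105 and 725 in the mutant, or 10.9% ± 0.916 against 49.7% ± 2.86, a share 4.58 times as large. The median 3′ end was 12, 10 and 13 nt past the 25S end in WT and 38 and 36 nt past it in the mutant.

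Farther on, the 41 nt between the Rnt1 stretch and T1 held 236, 187 and 203 counts in WT, against 1707 and 279 in the mutant, or 9.41% ± 0.245 and 17.8% ± 0.747. T1 itself went the other way. It held 41, 33 and 25 counts in WT, against 25 and 3 in the mutant, or 1.48% ± 0.248 against 0.226% ± 0.0396. The 17 nt from T1 to the Reb1/Nsi1 site held 4.16% ± 1.03 and 6.22% ± 1.44, and these overlapped between the genotypes (exact permutation p = 0.4). The Reb1/Nsi1 site held 9, 8 and 8 counts in WT, against 72 and 13 in the mutant, or 0.377% ± 0.0204 and 0.793% ± 0.0889. The last 91 nt held 2.53% ± 0.328 and 3.52% ± 0.318. Over the 7 segments the Benjamini-Hochberg adjusted p was 0.233 for 6 of them and 0.4 for the stretch from T1 to the Reb1/Nsi1 site (exact permutation test).

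**Figure D2:**
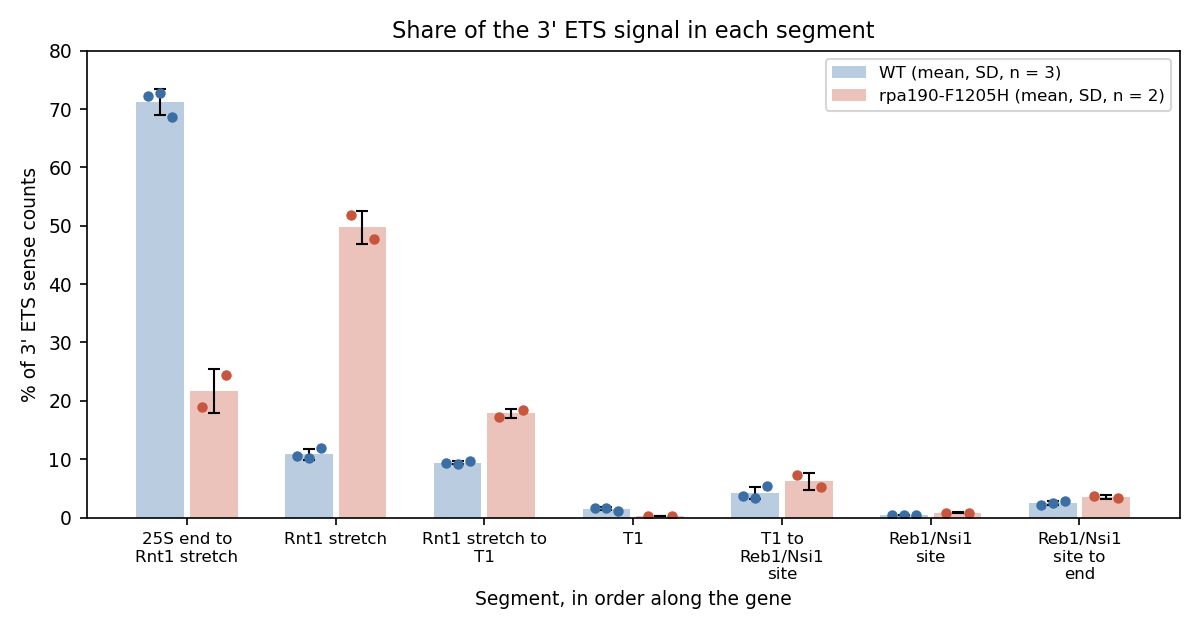
Share of the 3′ ETS sense counts in each of its 7 segments, in order along the gene. Bars are means, error bars SD (n = 3 WT and n = 2 mutant libraries) and points single libraries. The mutant was lower in the first 15 nt (21.7% against 71.2%) and at T1 (0.226% against 1.48%) and higher in the Rnt1 stretch (49.7% against 10.9%).

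Because these shares sum to the whole, the small first segment of the mutant raises all others, so each was also measured without the first 15 nt. There the Rnt1 stretch held 37.7% ± 0.515 in WT, against 63.5% ± 0.550 in the mutant, and T1 held 5.20% ± 1.21 and 0.287% ± 0.0366. Both differences kept their direction as shares of the 35S gene as well. The 4 segments between and past these turned from higher to lower in the mutant. For the stretch from the Rnt1 stretch to T1 the difference of mutant minus WT went from 8.43 to -9.91 percentage points. Together the segments past T1 held 7.07% ± 1.31 of the 3′ ETS in WT and 10.5% ± 1.67 in the mutant, but 24.4% ± 2.59 and 13.4% ± 1.48 without the first 15 nt. Of the counts past the Rnt1 stretch they held 39.2% ± 4.28 and 36.8% ± 4.61, which overlapped (exact permutation p = 0.8). As shares of the 35S gene, all 4 of these segments were higher in the mutant. In order along the gene, the differences were 0.0485, 0.0130, 0.00234 and 0.00650 percentage points. For all signal past T1 the difference was 0.0219. A direction for these 4 segments therefore depends on what they are set against.

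Single nucleotides were compared with edgeR's quasi-likelihood test fitted over the whole 35S gene, with TMM scaling and adjustment over all 5990 positions tested. A position was called at a Benjamini-Hochberg adjusted p below 0.05. Of the 211 nucleotides, 51 had enough counts to be tested and 160 did not. A position can pass this filter through the mutant alone, so that the numbers of calls describe the tested positions only. Among the 51, 23 rose and 17 fell in the mutant, where 68.9% of tested positions were called over the whole gene, 36.0% higher and 32.9% lower. The median log2 fold change was 0.42 in the 3′ ETS and 0.06 over the gene. Scaled to the 3′ ETS total without its first 15 nt, 14 rose and 23 fell. The calls were ordered along the sequence. In the first 15 nt 13 of 15 tested positions fell and none rose, in the Rnt1 stretch 17 of 21 rose and 1 fell, and between that stretch and T1 4 of 11 rose and 1 fell. No position at or past the Reb1/Nsi1 site could be tested.

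**Figure D3:**
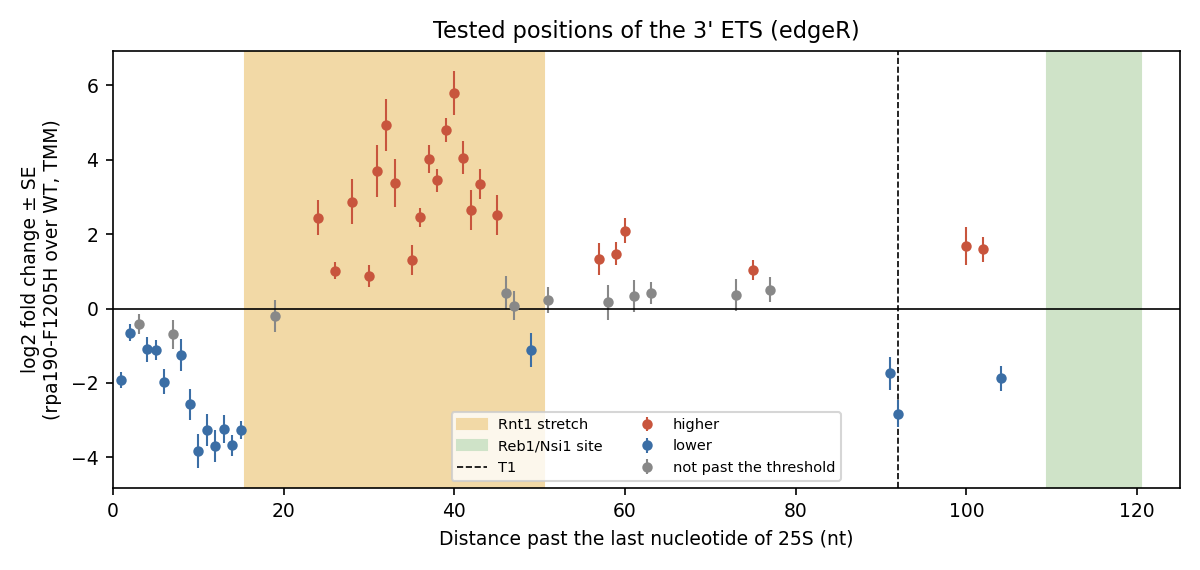
Log2 fold change of the mutant over WT (edgeR, TMM scaling) with its SE at the 51 tested positions, against the distance past the last nucleotide of 25S. Red positions rose, blue fell and grey did not pass the threshold, with the Rnt1 stretch, T1 and the Reb1/Nsi1 site marked as in the profile. In the first 15 nt 13 positions fell, and in the Rnt1 stretch 17 rose.

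The first nucleotide past 25S, nt 6648 (U), had the highest mean share of the 3′ ETS in both genotypes. It held 893, 782 and 771 counts in WT, against 981 and 212 in the mutant. This was 36.9% ± 1.70 and 11.95% ± 2.83 of the 3′ ETS counts, and it fell (log2 fold change -1.92 ± 0.213, SE). This nucleotide adjoins the last nucleotide of 25S, the end of the finished rRNA, where 76647, 64439 and 59371 counts lay in WT, against 104809 and 19746 in the mutant. Relative to that end, nt 6648 held 1.23% ± 0.0676 in WT and 1.005% ± 0.0973 in the mutant, a ratio of 0.820 with no overlap between the genotypes. The part of this end in the fall at nt 6648 was not tested.

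In WT the profile ran from there to a low at nt 6655, with 11, 12 and 10 counts, and up to a second high at nt 6661 (C) and nt 6662 (U), the last 2 nucleotides before the Rnt1 stretch. At nt 6662 there were 300, 240 and 231 counts in WT, against 131 and 25 in the mutant, or 11.6% ± 0.470 and 1.49% ± 0.224 of the 3′ ETS. At nt 6661 there were 185, 116 and 134 in WT, against 59 and 9 in the mutant. The log2 fold change was -3.27 ± 0.244 at nt 6662 (edgeR adjusted p = 1.20e-09) and -3.68 ± 0.273 at nt 6661 (edgeR adjusted p = 1.11e-09). Against the 25S end these 2 positions stood lower by more than nt 6648 did, with a mutant share of its count of 0.177% ± 0.00643 that was 0.295 times that of WT. The other 3 of the 5 largest falls lay just before them, at nt 6657 (C, -3.82 ± 0.461), nt 6659 (U, -3.70 ± 0.433) and nt 6658 (U, -3.26 ± 0.430). At each of these 3 the mutant libraries held at most 12 counts.

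Past the Rnt1 boundary the signal in WT dropped at once, to 1, 2 and 1 counts at nt 6663, and 1 and 0 in the mutant. Both genotypes then had a sharp peak at nt 6673 (U), in the 5′ arm of the hairpin and 4 nt before its loop. It held 108, 75 and 116 counts in WT, against 1195 and 144 in the mutant, or 4.50% ± 0.940 and 10.8% ± 1.87 of the 3′ ETS. It rose by a log2 fold change of 1.02 ± 0.222 (edgeR adjusted p = 4.02e-04), but was at -0.17 when scaled to the 3′ ETS without its first 15 nt (edgeR adjusted p = 0.541). The peak was thus present in all 5 libraries, and its direction depended on the scaling.

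Among the tested positions, the 5 largest rises lay in the loop or in the 3′ arm past it, and 3 of them in a run of 4 G. At these 5 each WT library held at most 6 counts. They passed the filter through the mutant alone, so their ranking is a description and does not test where rises lie. The run is shown in capitals within the Rnt1 stretch (nt 6663 to 6697, chrXII:460873-460907 on the minus strand), and it and the 10 nt stretch below were singled out after their values were seen.
Rnt1 stretch: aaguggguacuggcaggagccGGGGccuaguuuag
These 4 nucleotides (nt 6684 to 6687) held 18, 17 and 13 counts in WT, against 1652 and 235 in the mutant. That was 0.723% ± 0.110 of the 3′ ETS in WT and 16.1% ± 0.907 in the mutant, a share 22.3 times as large. At nt 6686, the third G, there were 5, 5 and 2 counts in WT, against 624 and 87 in the mutant, a log2 fold change of 4.79 ± 0.323 (edgeR adjusted p = 4.02e-10). It was 3.61 under the scaling that lowered the mutant most. At nt 6684 the counts were 4, 2 and 6 in WT, against 411 and 39 in the mutant (4.02 ± 0.384), and at nt 6685 they were 7, 10 and 5, against 443 and 63 (3.44 ± 0.304). At nt 6687 WT had 2 counts in all, both in WT library 1, and the mutant 174 and 46, a ratio of 55.0 with a 95% counting interval of 15.04 to 457. A G in the loop, nt 6679, likewise had 2 WT counts in all, both in WT library 1, and 84 and 30 in the mutant, a ratio of 28.5 (95% counting interval 7.71 to 238). The C on each side of the run rose as well. At nt 6683 there were 17, 23 and 12 counts in WT, against 479 and 85 in the mutant (2.45 ± 0.262), and at nt 6688 1, 2 and 3, against 194 and 24 (4.04 ± 0.444).

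By the parts of the hairpin, a division made after the data were seen, the 14 nt of the 5′ arm that lie in the Rnt1 stretch held 5.86% ± 1.00 of the 3′ ETS in WT and 15.1% ± 2.00 in the mutant. The loop held 0.815% ± 0.157 and 4.14% ± 1.03. The whole 3′ arm (nt 6681 to 6706) held 160, 133 and 131 counts in WT, against 3629 and 522 in the mutant, or 6.37% ± 0.168 and 35.6% ± 1.72. Most of this lay in its first 10 nt, at 2.24% ± 0.232 and 27.6% ± 0.132, which was 12.3 times the WT share. Within the Rnt1 stretch alone, the 3′ arm took 38.8% ± 4.42 of the signal in WT, against 61.3% ± 0.272 in the mutant. No rise was called at the end of the stretch. Of the last 5 nt, nt 6693 and nt 6694 were tested without a call, nt 6696 (A) fell with 13, 7 and 11 counts in WT, against 29 and 1 in the mutant (-1.12 ± 0.456), and the other 2 were not tested.

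**Figure D4:**
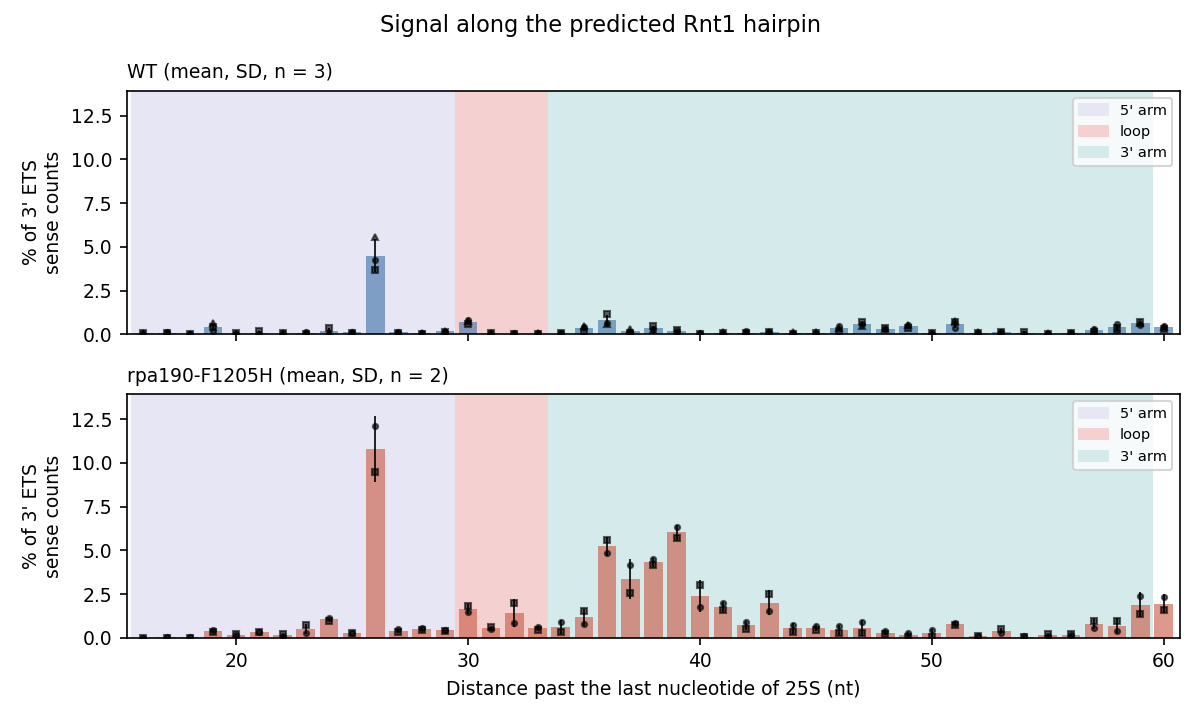
Share of the 3′ ETS sense counts at each nucleotide from 16 to 60 nt past the 25S end, with WT above and the mutant below on the same axis. Bars are means, error bars SD and points single libraries, and the shading gives the arms and loop of the predicted hairpin. The peak 26 nt past the 25S end stood in both genotypes (4.50% and 10.8%), and the 4 G from 37 to 40 nt past it held 16.1% in the mutant against 0.723% in WT.

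Summed over 10 nt windows, which let more of the spacer be tested, 8 windows rose and 3 fell of 15 tested of 21, where 75.1% of windows were called over the 35S gene, 38.8% higher and 36.3% lower. Scaled to the 35S total, 10 rose and 2 fell, and scaled to the 3′ ETS total without its first 15 nt, 1 rose and 8 fell. The largest rise was in nt 6678 to 6687, from 51, 45 and 37 counts in WT to 2493 and 394 in the mutant (log2 fold change 3.37 ± 0.182, edgeR adjusted p = 5.83e-14), and this was the 1 window that rose under every scaling. The largest fall was in nt 6658 to 6667, from 621, 456 and 448 to 309 and 48 (-3.16 ± 0.187, edgeR adjusted p = 3.18e-13). Near the end of the spacer, nt 6818 to 6827 held 9, 10 and 7 counts in WT, against 126 and 20 in the mutant (1.42 ± 0.352, edgeR adjusted p = 8.19e-04). Scaled to the 3′ ETS without its first 15 nt this window was at 0.25 and not called (edgeR adjusted p = 0.621). At nt 6808 to 6817 the 3, 4 and 7 counts in WT, against 66 and 7 in the mutant gave a rise (1.26 ± 0.470) that was lost without mutant library 1 (edgeR adjusted p = 0.438) and without WT library 1 (edgeR adjusted p = 0.109).

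Between the Rnt1 stretch and T1 the highest position of the mutant was nt 6722 (U), with 23, 19 and 28 counts in WT, against 228 and 47 in the mutant. It rose by a log2 fold change of 1.04 ± 0.262 (edgeR adjusted p = 0.00158), but was at -0.13 when scaled to the 3′ ETS without its first 15 nt.

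At T1, the site where most polymerases are known to stop, the mutant signal was low in both libraries. Position nt 6739 (U) fell by a log2 fold change of -2.83 ± 0.361 (edgeR adjusted p = 1.05e-06), and over the scalings it ran from -4.07 to -2.42. The C before it, nt 6738, fell too, with 9, 11 and 13 counts in WT, against 15 and 4 in the mutant (-1.74 ± 0.449). Past T1 the WT libraries and mutant library 1 had peaks at nt 6749 and nt 6751, both U, before the Reb1/Nsi1 site, and mutant library 2 had the first of them. The stretch is shown with T1 (first capital) and nt 6749 (second capital) in nt 6727 to 6767 (chrXII:460803-460843 on the minus strand).
T1 to Reb1/Nsi1 site: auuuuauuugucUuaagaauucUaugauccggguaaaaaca
At nt 6749, 10 nt past T1, there were 24, 12 and 42 counts in WT, against 501 and 43 in the mutant. This was 1.18% ± 0.734 and 3.96% ± 1.59 of the 3′ ETS, a rise of 1.59 ± 0.327 (edgeR adjusted p = 2.45e-04) that was no longer called without mutant library 1 (0.92, edgeR adjusted p = 0.0508) or when scaled to the 3′ ETS without its first 15 nt (0.37, edgeR adjusted p = 0.251). At nt 6751 there were 50, 39 and 48 counts in WT, against 80 and 3 in the mutant, a fall of -1.88 ± 0.335 (edgeR adjusted p = 5.53e-05). Its size rested on single libraries, at -3.68 without mutant library 1 and -1.56 without mutant library 2. The relative counts of these positions differed, with nt 6749 at 0.554 ± 0.291 times nt 6751 in WT and 10.3 ± 5.71 times in the mutant. T1 held 1.68 ± 1.08 times the count of nt 6749 in WT and 0.0598 ± 0.0140 times in the mutant. Both ratios were looked at because of their values, and rest on few counts in mutant library 2.

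**Figure D5:**
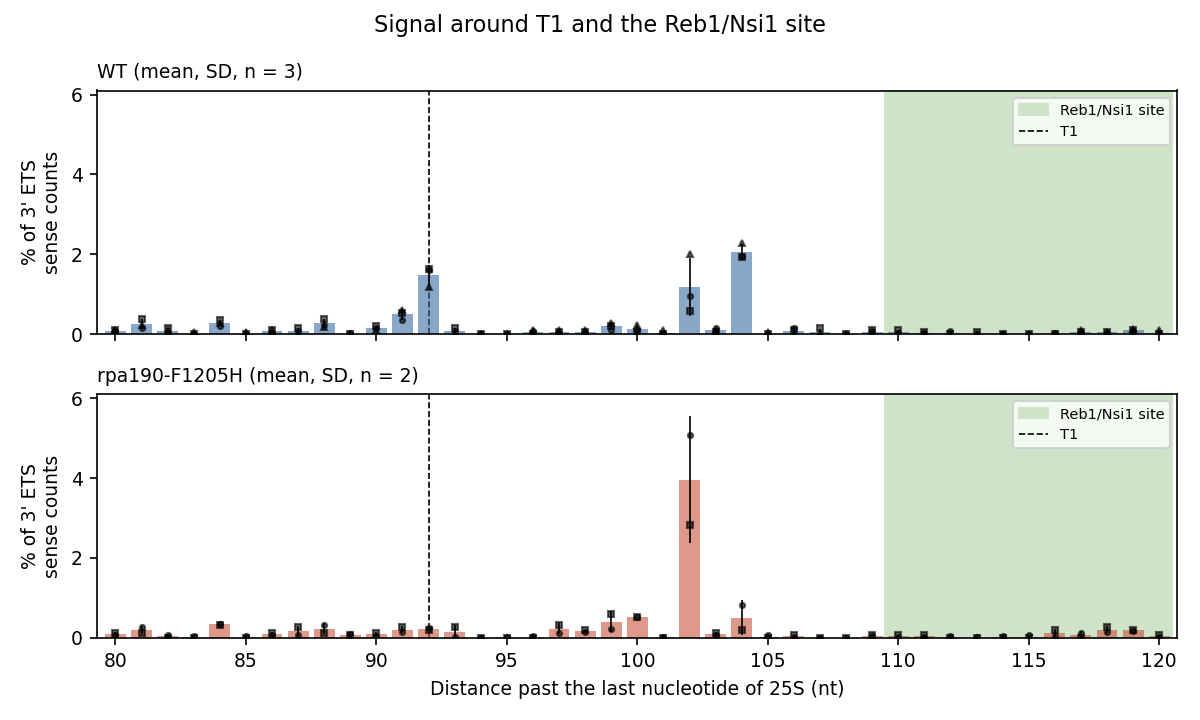
Share of the 3′ ETS sense counts at each nucleotide from 80 to 120 nt past the 25S end, with WT above and the mutant below on the same axis. Bars are means, error bars SD and points single libraries, the dashed line is T1 and the shaded band the Reb1/Nsi1 site. The WT peaks at T1 (1.48%) and 104 nt past the 25S end (2.06%) were lower in the mutant (0.226% and 0.504%), while the peak 102 nt past it was higher (3.96% against 1.18%).

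The Reb1/Nsi1 site overlaps the core CGGGUAA, which starts at nt 6756. Searched on both strands, this motif occurred once in the 3′ ETS and 4 times in the repeat, and 9.19% of all 211 nt stretches of the repeat held it. From the site to the end of the spacer the mean count per nucleotide was 0.0215 ± 0.00179 of the median count per nucleotide over 200 nt near the 25S end in WT, and 0.0279 ± 0.00568 of it in the mutant. For the Rnt1 stretch these ratios were 0.241 ± 0.0241 and 1.02 ± 0.175.

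The mutant had more 3′ ends at G and fewer at U. G ended 2.36% ± 0.161 of the 3′ ETS signal in WT, against 25.3% ± 1.21 in the mutant, and makes up 20.4% of its nucleotides. U ended 81.2% ± 0.802 in WT and 51.7% ± 0.251 in the mutant, A 6.12% ± 0.908 and 11.7% ± 0.799, and C 10.3% ± 0.449 and 11.2% ± 0.664 (exact permutation p = 0.4 for C). Adjusted over the 4 bases by Benjamini-Hochberg, the exact permutation p was 0.267 for G, U and A, and 0.4 for C. Since the first 15 nt hold no G, these shares were also taken without them. G then ended 8.24% ± 1.13 in WT and 32.4% ± 0.0309 in the mutant, and U 65.0% ± 1.63 and 39.7% ± 3.27. A turned, at 16.7% ± 1.12 in WT and 14.5% ± 1.72 in the mutant, and C was at 10.04% ± 1.41 and 13.5% ± 1.53. The share at G was higher in the Rnt1 stretch, where 15 of 35 nt are G (11.9% ± 3.00 in WT and 42.5% ± 0.372 in the mutant), than past it, where 28 of 161 are (6.08% ± 0.679 and 14.7% ± 0.143). Of the 10 highest positions in WT 9 were U and none G, and 8 lay in the first 15 nt. Of the 10 highest in the mutant 5 were U and 4 G, and 6 lay in the Rnt1 stretch. The lists shared 3 positions, nt 6648, nt 6649 and nt 6673.

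Set beside the other spacers of the gene, each without its first 15 nt, the 3′ ETS had the lowest density. Its mean includes the nucleotides past T1, the main termination site. Its count per nucleotide was 0.159 ± 0.00953 times that of the 5′ ETS in WT and 0.148 ± 0.00356 in the mutant (exact permutation p = 0.4), and 0.237 ± 0.0140 and 0.246 ± 0.000418 times that of ITS2 (exact permutation p = 0.6). Against ITS1 it was 0.339 ± 0.0201 and 0.391 ± 0.00155. The share at G was higher there than in each other spacer in the mutant, at 32.4% ± 0.0309 against 23.0% ± 0.329 in the 5′ ETS, 25.6% ± 1.12 in ITS1 and 19.4% ± 1.17 in ITS2. In WT these shares were 8.24% ± 1.13, 9.68% ± 0.984, 9.56% ± 0.828 and 6.66% ± 0.588. Much of the mutant value came from the G run at nt 6684 to 6687, singled out after its values were seen. That run held 16.1% ± 0.907 of the whole 3′ ETS in the mutant, where all G held 25.3% ± 1.21. Past the Rnt1 stretch, G ended 14.7% ± 0.143 in the mutant, less than in each other spacer. Neither the ranking nor the log odds below was tested without the run, and the G content of the other spacers is not given. The log odds of G in the 3′ ETS minus that in the other spacer were higher in the mutant by 0.647 against the 5′ ETS, 0.495 against ITS1 and 0.458 against ITS2, each with an exact permutation p of 0.2, the smallest possible. The first 15 nt of ITS2, the spacer past 5.8S, held 59.0% ± 1.45 of its signal in WT, against 11.1% ± 0.450 for the mutant, and those of ITS1, the spacer past 18S, 6.13% ± 0.770, against 2.37% ± 0.141.

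From the Rnt1 stretch to T1, a span of 77 nt, the libraries of one genotype ranked the positions more alike than libraries of different genotypes did. Spearman's rho across these positions was 0.749 to 0.820 among WT libraries, 0.882 between the mutant libraries and 0.398 to 0.568 between genotypes. The positions share a library, its depth and the sequence and are not replicates, so these are descriptions.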

How the data were processed

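Per the labels' protocols, frozen cells were ground, RNA polymerase I was precipitated with anti-HA beads, and its RNA was ligated at the 3′ end to a linker, reverse transcribed, circularised and amplified by PCR. What the authors deposited, as judged from the values, is a raw count per nucleotide and strand of 1 rDNA repeat, each count standing for an RNA 3′ end. The submitters' processing notes name SAMtools 1.3.1, BWA 0.6, Trim Galore 0.4.1 and bcl2fastq 2.18.0.012. The sources used here give no settings, genome build, handling of duplicates or molecular identifiers, or treatment of reads shared by the repeats.

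Groups came from the genotype labels. The 3′ ETS was cut into the 3 stretches marked in the files and the 4 between them. For shares the exact permutation test was two-sided (SciPy 1.17.1, Python 3.11.15, 10 splits). Positions and 10 nt windows of the whole 35S gene were tested with edgeR 4.0.16 in R 4.3.3 (quasi-likelihood test, filterByExpr, TMM, library size the 35S total, Benjamini-Hochberg threshold 0.05). The SE is the size of the log2 fold change over the square root of F. Ratios at 1 to 3 WT counts use effective library sizes and exact binomial intervals. Folding used RNAfold 2.7.2 at its default settings. Among WT libraries, chi-square per degree of freedom over the 35S gene was 1.46 to 2.36, and 4.36 between the mutant libraries, so each was counted as a library of its own. Within the 3′ ETS it was 1.08 to 1.65 among WT libraries and 2.91 between the mutant libraries. The lowest, WT 1 against WT 2, was little above counting error alone.

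The positions named are the 10 of highest mean share in each genotype and the 5 largest called rises and falls with no overlap between genotypes. Of the marked nucleotides, T1 alone was named for its mark. Positions nt 6655, 6663, 6693, 6694, 6696 and 6738 fall outside this rule and were chosen after their values were seen. The region, lists and tests were chosen with earlier results of these data known. On simulated counts for all 35S positions, 200 of them changed, 41% of the 2-fold and 97% of the 4-fold changes were called by the position test, and 3.50% of calls were false. For the 686 windows with 168 changed these were 83.3%, 100% and 3.75%. In both simulations the changed members were drawn only from well covered ones, with a fixed dispersion, and far fewer changed than were called here. The rates therefore do not carry over to the sparse positions of the 3′ ETS. Alternatives covered scaling, DESeq2 1.42.0, the filter, the denominator, a ceiling, window size, a replicate block and each library left out.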

Additional observations from a re-analysis of the deposited data

Results flagged for a closer look

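Sense signal went on past the last nucleotide of the 3′ ETS, in the 40 nt up to T2 (nt 6859 to 6898), which no comparison above uses. There the WT libraries held 9, 7 and 2 counts, against 24 and 6 in the mutant. The stretch was flagged because 4 of the 5 libraries, WT 1, WT 2 and both mutant libraries, held more than 3 counts. That limit takes no account of depth or background. The genotypes overlapped, and mutant library 1 is also the deepest. The T2 nucleotide itself was at 0 in all 5 libraries.

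On the antisense strand of the 3′ ETS, mutant library 1, the deepest, held 15 counts, above the same limit, while WT held 1, 2 and 1 and mutant library 2 held 2. The sense counts there were 9861 and 1519 in the mutant, and 2537, 2026 and 2096 in WT. As a percentage of these, the antisense counts were alike in the mutant libraries, at 0.152% and 0.132%, against 0.0394%, 0.0987% and 0.0477% in WT. All but the first rest on 1 or 2 counts.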

How the results depend on the processing

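Of the shares, the differences in the first 15 nt, the Rnt1 stretch, T1, G, U and the whole 3′ ETS kept their direction under every alternative run for them, though the exact permutation test on 5 libraries cannot go below 0.2. Without the first 15 nt, and without the first 30, differences (mutant minus WT, percentage points) turned to -9.91 and -13.3 for the stretch from the Rnt1 stretch to T1, -6.43 and -8.54 from T1 to the Reb1/Nsi1 site, -0.297 and -0.407 at that site, -4.28 and -5.65 past it, -11.0 and -14.6 for all signal past T1, and -2.23 and -3.03 at A. Removing a stretch that holds most WT signal raises every other WT share by construction. As shares of the counts past the Rnt1 stretch (chosen after seeing the data) they were -1.32, -1.77 and -2.42 from T1 to the site, past the site and past T1. Capped at the 99th percentile, the last 91 nt turned to -0.0228 and C to -3.24, and the cause was not tested. With 1 library left out, differences ran from 1.04 to 3.08 from T1 to the site and from 2.28 to 4.64 past T1.

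Over the scalings the median log2 fold change of the 35S gene ran from -1.14 (3′ ETS without its first 15 nt) to 0.48 (35S total), so changes at positions are relative to that. Scaled to the former, 14 positions rose in place of 23, and 1 window rose and 8 fell in place of 8 and 3. Then nt 6673 lay at -0.17, nt 6722 at -0.13, and the windows from nt 6668, 6698, 6708, 6718, 6748 and 6758 at -0.00956, -5.5e-05, -0.60, -0.61, -0.98 and -0.32. Scaled to the 35S total, nt 6650 lay at 4.3e-04 and the windows from nt 6728 and 6828 at 0.27 and 0.16, none called, and to the 3′ ETS total, the window from nt 6728 at 0.0917. With no filter 35 positions rose. With DESeq2 5 windows rose, with 20 nt windows 4. With 1 library left out, 17 to 30 positions rose and 14 to 17 fell, and the uncalled windows from nt 6728 and 6748 ran from -0.42 to 0.0821 and from -0.47 to 0.50. A lone mutant library is then assumed to vary like the others.

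Replicate numbers are shared, and deviations of same-numbered libraries correlated by 0.0657 and 0.0206. No pairing was therefore assumed, though such noisy values per nucleotide cannot exclude a shared batch. With the replicate block 23 positions rose and 18 fell, and 5 windows rose and 3 fell. Depth limits the part past T1 most, where the 91 nt after the Reb1/Nsi1 site held 50 to 60 counts in 4 of the 5 libraries.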
